A study of Mus musculus with 36 samples.

Results

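The loss of B2m was examined in TP natural killer (NK) cells, the splenic NK cells that carry all 3 of the inhibitory receptors used in the sort, by setting 3 libraries from B2m-knockout mice (KO TP) against 3 libraries from wild-type mice (WT TP). These 6 libraries, chosen by their sample labels, are 6 of the 36 in the series. TP cells were sorted as CD27-negative, CD11b-positive cells positive for Ly49C, Ly49I and NKG2A. WT mice were B2m+/+ C57BL/6 mice and KO mice were B2m-/-, so the whole host, and not the NK cells alone, lacked the gene. The labels call the replicates biological and give no age, sex or treatment, and they do not give the strain background of the KO mice or the origin of the knockout allele, so that the deletion and any linked or strain difference cannot be told apart. A further 12 libraries of the same table were used to set the TP result against the same genotype contrast in SP cells, which carry only Ly49I of the 3 receptors, and in TN cells, which carry none, with 3 KO and 3 WT libraries for each.

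B2m encodes beta-2 microglobulin, the light chain without which classical MHC class I molecules do not fold stably at the cell surface. NK cells read MHC class I on neighbouring cells through inhibitory receptors: in C57BL/6 mice Ly49C and Ly49I bind the classical molecule H-2Kb, and NKG2A, paired with CD94, binds the non-classical molecule Qa-1. Binding during development tunes how strongly an NK cell later responds, a process called education or licensing, and NK cells that mature in a host without MHC class I are known to be hyporesponsive. TP cells of a KO host therefore carry receptors for self molecules that are largely missing around them, and the comparison asks how the RNA of such cells differs.

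Values are TPM, a level that is already scaled to gene length and to the library total, and libraries are given in the order of replicates 1, 2 and 3. B2m stood at 3419.6, 3165 and 3351 TPM in WT TP, whereas the KO TP libraries held 102, 107 and 73.9 TPM. The groups were far apart, and the gene was the most strongly supported difference of all (log2 change -5.14 ± 0.12 SE, limma adjusted p 1.29e-14). The genes of the sorted receptors were present in both genotypes. Klra3, the gene of Ly49C, had 217 ± 26.2 TPM in WT TP and 342 ± 79.2 TPM in KO TP cells (SD, n = 3; limma adjusted p 0.588), Klra9, for Ly49I, at 963 ± 100 and 1241 ± 85.4 TPM (adjusted p 0.201), and Klrc1, for NKG2A, at 864 and 932 TPM (adjusted p 0.909). Reads can be shared within the Klra, Klrc, Klrb1, Khdc1 and Serpinb9 families and between H2-K1 and its relatives, which makes the level of any one member uncertain. The 10 markers of NK cells summed to 23386 to 24579 TPM in WT TP and to 23207 to 24434 TPM in KO TP libraries.

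The KO TP libraries also held RNA of genes that define some other blood cells, and their summed neutrophil, B and plasma cell, and monocyte markers each lay above those of every other library of the table. The 23 neutrophil and granulocyte-precursor markers in the table summed to 71.5, 122 and 256 TPM in KO TP, against 0.60 to 1.98 TPM in WT TP and at most 7.27 TPM in any SP or TN library. S100a8, S100a9, Ngp, Camp, Ltf, Lcn2 and Chil3, which encode granule and calcium-binding proteins of neutrophils, were above 0 in all 3 KO TP libraries and listed at 0 in all 3 WT TP libraries, and 6 others, among them Elane, Prtn3 and Ctsg, were listed at 0 in all 6. Those 7 entered the tests only through the KO TP libraries. Igha, the heavy chain of IgA that plasma cells make, was at 0.15, 0 and 0.14 TPM in WT TP and at 166, 70.5 and 169 TPM in KO TP libraries. The 26 B cell and plasma cell markers summed to 280 to 302 TPM and 536 to 833 TPM. Of the 26, 6 lay above all WT TP values in every KO TP library and 1 lay below (11.1% and 7.14% of all tested genes). Only Igha was called of the 12 tested (8.33%, against 1.59% of all genes), and it too entered the tests only through the KO TP libraries. Of the 12, 8 had a log2 change above 0. Monocyte and macrophage markers summed to 28.0 to 34.0 TPM in WT TP and 46.5 to 75.1 TPM in KO TP libraries. Of these 17 markers, 2 lay above all WT TP values in every KO TP library, and 0 of the 4 tested were called. Other markers overlapped between the genotypes: those of T cells summed to 202 to 242 TPM in WT TP and 210 to 220 TPM in KO TP, those of dendritic cells to 20.1 to 42.6 and 36.0 to 43.2 TPM, and those of erythroid cells and platelets to 143 to 164 and 111 to 191 TPM. Of the 3 T cell markers tested, 1 was called (33.3%, against 1.59% of all genes). It was Cd3g, a T cell receptor subunit gene (1.22 to 9.49 TPM, limma adjusted p 0.0184), a call lost without WT replicate 1 or 3 or without any 1 KO replicate. The part of these cells in the results that follow was not tested. For some of the genes below, the change in SP cells, whose libraries had at most 7.27 TPM of neutrophil markers, is given beside that in TP cells.

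**Figure D1:**
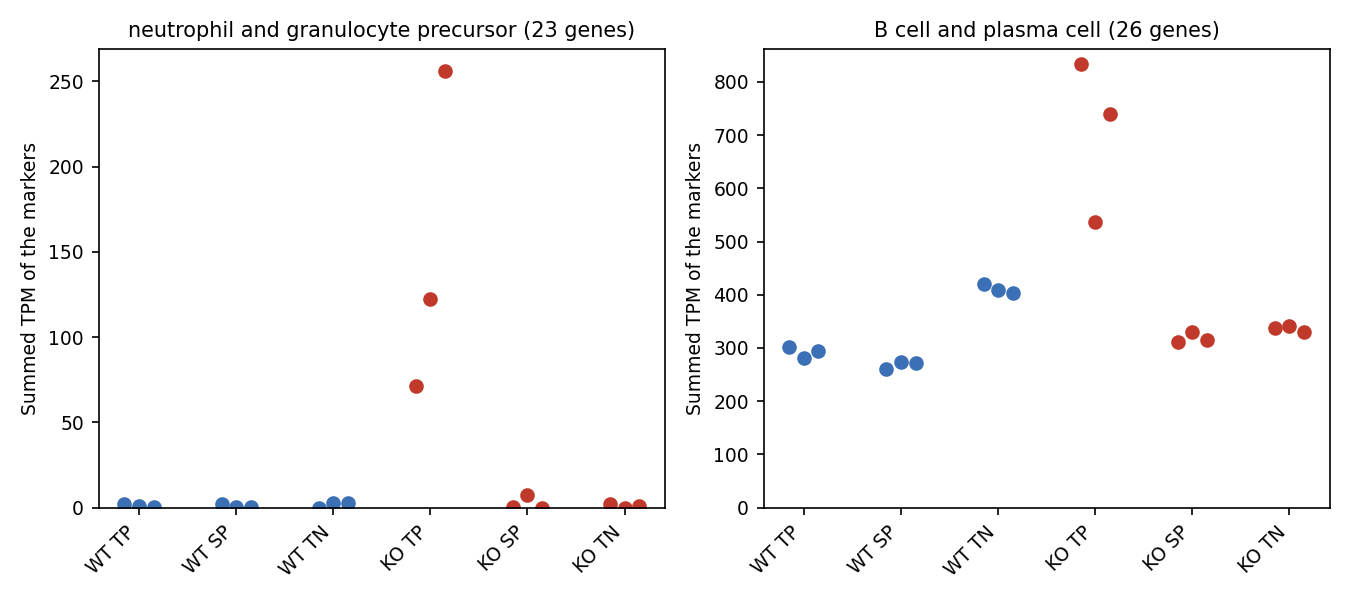
Summed TPM of the neutrophil and granulocyte-precursor markers (left) and of the B cell and plasma cell markers (right) in each of the 18 sorted-subset libraries, blue for WT and red for KO, 3 points a group. The KO TP libraries lie above all others, at 71.5 to 256 TPM on the left and 536 to 833 TPM on the right.

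Of 12018 genes tested, 191 (1.59%) passed the threshold for a call, an adjusted p under 0.05: 118 (0.982%) were higher and 73 (0.607%) lower in KO TP cells. The 3 KO and 3 WT values did not overlap for any called gene, and they did not overlap for 18.3% of all tested genes (11.1% higher and 7.14% lower in KO). Among the 191 called genes, 86 changed at least 2-fold on the log2(TPM + 1) scale, of which 51 were rises and 35 falls. Of all tested genes, 1421 (11.8%) had an unadjusted p under 0.05. Calls came from limma fitted to all 18 sorted-subset libraries: with the 6 TP libraries alone there were 43, of which 38 were shared, and leaving out a single TP library gave 144 for KO replicate 2, 123 or fewer for each of the other 5 and 109 for KO replicate 1. Rescaling each library by the median of its gene ratios gave 94 higher and 93 lower, so the excess of rises depends on the scaling. In bulk RNA, fewer cells that express a gene and less RNA in each cell cannot be told apart. The p-values measure the spread between these samples, and 3 against 3 cannot give an exact permutation p under 0.1 for a single gene.

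**Figure D2:**
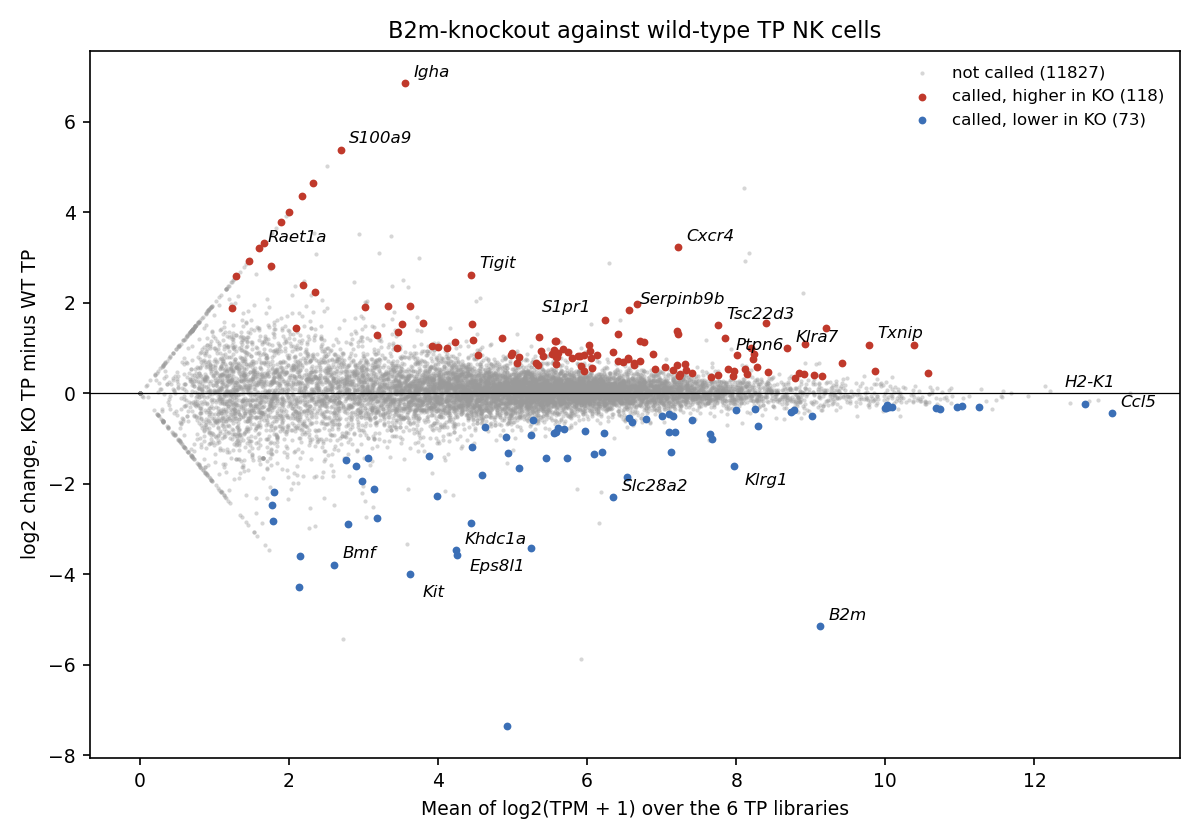
Each point is 1 of 12018 tested genes: the horizontal axis is the mean of log2(TPM + 1) over the 6 TP libraries and the vertical axis the log2 change, KO minus WT. Red points are the 118 genes called higher and blue points the 73 called lower; B2m and Cxcr4 stand out at high levels, and the red points on the upper left edge include genes listed at 0 in every WT TP library.

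The most direct question is whether other genes of antigen presentation followed B2m, and at the RNA level few of them were called. Of 26 tested genes for MHC class I chains and peptide loading, 1 was called higher and 1 lower (7.69%, against 1.59% of all genes). Their median log2 change was -0.08 against 0.04 over all genes. Of the 26, 7 had a change above 0, against 6605 of all 12018 tested genes. H2-K2, a relative of H2-K1 that was not on this list, was called higher. It was at 71.9, 53.1 and 73.7 TPM in WT and at 103, 108 and 114 TPM in KO libraries. H2-K1, which encodes the H-2K heavy chain, was at 7011, 7313 and 7065 TPM in WT and at 6211, 6122 and 5847 TPM in KO libraries. The libraries did not overlap, but the fall of 0.23 on the log2 scale (limma adjusted p 0.0265) lost its call when low genes were kept, after quantile normalization, or without any 1 TP library. H2-D1 was at 3072 and 2924 TPM on average, and H2-T23, which encodes the NKG2A ligand Qa-1, at 328 and 316 TPM, and neither was called (adjusted p 0.57 and 0.86). Calr, the chaperone calreticulin of the peptide-loading complex, rose from 456 ± 18.9 to 606 ± 38.8 TPM (log2 change 0.41, adjusted p 0.00527).

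Receptors of the Ly49 and related lectin families included some of the clearest differences: of 20 tested besides the sorted 3, 3 were called higher and 1 lower (20.0%, against 1.59% of all genes). Klrg1 encodes an inhibitory receptor for cadherins that marks mature NK cells. It was at 454, 459.5 and 397 TPM in WT TP and at 141, 141 and 144 TPM in KO TP libraries. The KO values lay well below all WT values, with hardly any spread among them (log2 change -1.61 ± 0.14 SE, limma adjusted p 2.25e-06), and the call held in all 19 alternative settings. In SP cells the change was -1.55.

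Klra7, which encodes Ly49G2, an inhibitory receptor for H-2D molecules, moved the other way. It was at 307, 271 and 291 TPM in WT and at 559, 606 and 571 TPM in KO libraries. The KO libraries lay far above the WT libraries (log2 change 0.99 ± 0.09 SE, limma adjusted p 3.52e-06), again in all 19 alternative settings. Klrb1b, the inhibitory receptor NKR-P1B for the ligand Clr-b, was at 308, 314 and 385 TPM in WT and at 727, 763 and 639 TPM in KO libraries (log2 change 1.08, adjusted p 1.69e-05). Klrb1a rose less, from 196 ± 13.1 to 286 ± 16.0 TPM (log2 change 0.54, adjusted p 0.0186), and was not called without WT replicate 1 or 3 or KO replicate 1 or 3. The activating receptor genes Klra8 (Ly49H; 863 and 787 TPM), Klrk1 (NKG2D; 1596 and 1721 TPM) and Klrc2 (NKG2C; 499 and 491 TPM) were not called.

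Among checkpoint and other inhibitory receptors, 1 of 9 tested was called (11.1%, against 1.59% of all genes). Tigit encodes an inhibitory receptor for the nectin-family ligand CD155. It was at 11.1, 5.83 and 7.12 TPM in WT and at 41.6, 82.0 and 42.9 TPM in KO libraries, so that the lowest KO library was well above the highest WT library (log2 change 2.62 ± 0.34 SE, limma adjusted p 0.00025). In KO SP cells it rose by 1.82. Its partners on the same ligands were not called: Cd226, the activating receptor DNAM-1, was at 104 and 89.9 TPM, and Cd96 at 94.9 and 68.4 TPM (adjusted p 0.861 and 0.0676). Lag3 was at 4.19 and 5.38 TPM, and Pdcd1 and Havcr2 did not reach the level needed for a test.

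**Figure D3:**
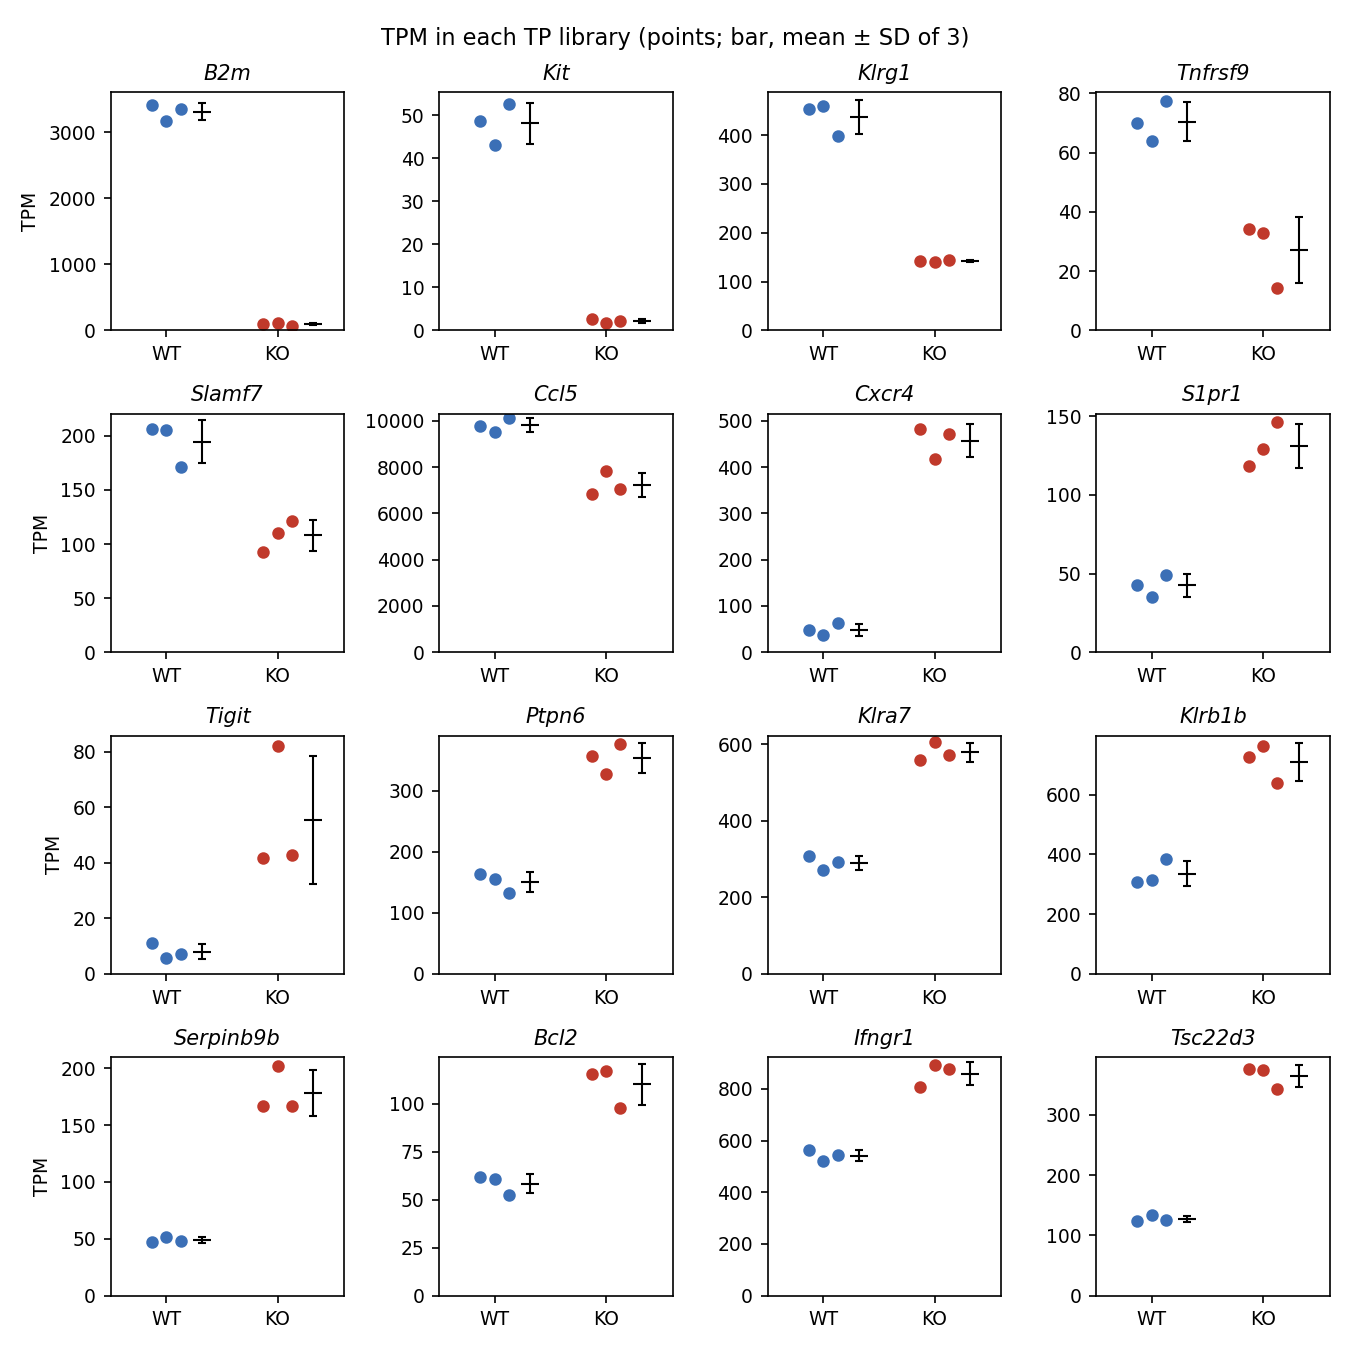
TPM of 16 genes in the 3 WT TP (blue) and 3 KO TP (red) libraries, each panel on its own linear axis from 0, with the mean ± SD beside the points. The 16 were picked from the called genes, none of which overlapped between genotypes, so the lack of overlap here follows from that choice. Over all tested genes 18.3% did not overlap. B2m, Kit and Cxcr4 show the widest gaps.

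Of 20 tested genes for activating receptors and their adaptors, 4 were called, all lower (20.0%, against 1.59% of all genes), and the list's median log2 change was -0.18. The largest of these was in Slamf7, a receptor that binds itself on neighbouring cells, at 207, 205 and 172 TPM in WT and 92.7, 111 and 121 TPM in KO libraries (log2 change -0.84, limma adjusted p 0.00374). Ncr1, which encodes NKp46, went from 2306 ± 95.6 to 1895 ± 44.3 TPM (log2 change -0.28, adjusted p 0.0124). Tyrobp, the adaptor DAP12 that carries the signal of activating Ly49 receptors, went from 2724 ± 79.1 to 2207 ± 90.4 TPM (-0.30, adjusted p 0.0214), and Itgb2, the beta chain of LFA-1 and of CD11b integrins, from 1922 ± 117 to 1511 ± 46.3 TPM (-0.35, adjusted p 0.00786). These 3 falls were not called under quantile normalization, nor those of Ncr1 and Tyrobp without a filter on low values. Ncr1 also lost its call without WT replicate 1 or KO replicate 2 or 3, Tyrobp without any library but KO replicate 2, and Itgb2 without WT replicate 1. Fcer1g, Cd247 and Hcst, the other adaptor genes, were not called.

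Of 33 genes of proximal signalling and its inhibitors, 2 were called, both higher (6.06%, against 1.59% of all genes). Ptpn6 encodes SHP-1, the phosphatase that inhibitory NK receptors recruit. It was at 164, 155 and 133 TPM in WT TP and at 356, 328 and 376 TPM in KO TP libraries. The groups did not overlap (log2 change 1.23 ± 0.16 SE, limma adjusted p 0.000238) and it was called in all 19 alternative settings. In SP cells the change was of like size (1.15), and the WT libraries were at a like level (145 ± 40.7 TPM). Pik3r1, the regulatory subunit p85-alpha of PI3 kinase, was at 243, 239 and 209 TPM in WT and at 407, 359 and 399 TPM in KO libraries (log2 change 0.75, adjusted p 0.000238). The kinases Syk, Zap70 and Lck, the other phosphatase genes Ptpn11 and Inpp5d, and Cblb were not called, with log2 changes from -0.15 to 0.21.

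Genes tied to anergy and exhaustion, 22 tested, had no call with limma and 1 with an unadjusted p under 0.05, and their median log2 change was 0.08. Nr4a1, a rapid reporter of receptor signalling, was at 10.2 and 9.15 TPM on average, Egr2 at 3.60 and 4.74 TPM, and Tox at 24.9 and 16.5 TPM. Interferon-stimulated genes, 37 tested, likewise had no call, 6 with an unadjusted p under 0.05, and a median of 0.08. Over all tested genes 1.59% were called and 11.8% had an unadjusted p under 0.05. Having no call therefore does not set lists of 22 or 37 genes apart from the rest. Ifi208, a gene of the interferon-inducible Ifi200 family that was not on that list, was among the 12 largest falls (57.9 ± 8.18 to 7.06 ± 1.02 TPM).

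Homing, adhesion and maturation-stage surface genes held the most calls of any list, 8 of 23 tested (34.8%, against 1.59% of all genes), with 2 higher and 6 lower. Cxcr4, the receptor for CXCL12, which holds leukocytes in bone marrow, was at 47.6, 36.1 and 62.3 TPM in WT TP and at 483, 417 and 472 TPM in KO TP libraries. This was the largest well-expressed rise (log2 change 3.24 ± 0.18 SE, limma adjusted p 5.93e-09), and in SP cells it was 3.61. S1pr1, a receptor for the lipid that draws lymphocytes out of tissues into blood, was at 42.9, 35.2 and 49.2 TPM in WT and at 118, 129 and 146 TPM in KO libraries. Every KO library was far above every WT library (log2 change 1.61, adjusted p 1.23e-06), and the change in SP cells was 1.77. S1pr5, the sphingosine receptor typical of mature NK cells, was at 446 and 357 TPM and was not called (adjusted p 0.0995).

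Kit, the receptor of stem cell factor, was at 48.7, 43.1 and 52.5 TPM in WT and nearly lost in KO libraries, at 2.58, 1.65 and 2.12 TPM. The fall was one of the largest outside B2m (log2 change -3.98 ± 0.36 SE, limma adjusted p 3.81e-06), was called in all 19 alternative settings, and was -3.97 in SP cells. Ccr2, a chemokine receptor of inflamed tissue, fell from 208 ± 6.95 to 138 ± 15.8 TPM (log2 change -0.59, adjusted p 0.0101). Thy1, a surface glycoprotein, fell from 221 ± 38.9 to 90.3 ± 24.4 TPM (-1.31), and Itgax, the integrin CD11c, from 493 to 367 TPM (-0.42). Leaving out 1 library ended these calls: any of the 6 for Thy1, WT replicate 3 or KO replicate 2 for Ccr2, and WT replicate 1 or 3 or KO replicate 1 or 3 for Itgax.

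Transcription factors of NK lineage and maturation gave 1 call among 20 tested (5.0%, against 1.59% of all genes). Tcf7, which encodes TCF-1 and normally declines as NK cells mature, was at 111, 114 and 135 TPM in WT and at 76.5, 79.5 and 74.2 TPM in KO libraries (log2 change -0.63, limma adjusted p 0.00264). Tbx21, for T-bet, was at 539.7 and 427 TPM, Zeb2 at 345 and 215 TPM and Eomes at 319 and 372 TPM, none of them called (adjusted p 0.0825, 0.0622 and 0.262). Cd27 and Itgam, whose proteins defined the mature gate, were at 97.3 and 139 TPM and at 664 and 717 TPM (adjusted p 0.0683 and 0.603).

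No granzyme or perforin gene was called, while 2 genes of granzyme inhibitors were. Gzma, the most abundant granzyme gene, was at 9967 and 10024 TPM, Prf1, perforin, at 1544 and 1519.5 TPM, Gzmb at 951 and 1129 TPM and Ifng at 52.0 and 47.9 TPM, and none was called. Of the 23 effector genes tested, 3 were called higher and 1 lower (17.4%, against 1.59% of all genes). Serpinb9, whose protein blocks granzyme B inside the killer cell, was at 219, 226 and 221 TPM in WT and at 399, 419 and 397 TPM in KO libraries, a tight shift with no overlap (log2 change 0.87 ± 0.07 SE, limma adjusted p 1.23e-06). Its relative Serpinb9b was at 47.3, 51.9 and 48.2 TPM in WT and at 167, 202 and 167 TPM in KO libraries (1.84, adjusted p 1.64e-06). Both were called in all 19 alternative settings and were higher in KO SP cells too (0.80 and 1.35).

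Ccl5, a chemokine that mature NK cells store as RNA at very high level, was at 9787, 9535 and 10134 TPM in WT and at 6836, 7815 and 7049.6 TPM in KO libraries. The fall of 0.44 on the log2 scale (limma adjusted p 0.00395) was not called under quantile normalization, without a filter on low values, without the intensity trend or with the 6 TP libraries alone. The other chemokine genes Ccl3, Ccl4 and Xcl1 were not called. Tnfsf14, the cytokine LIGHT, rose from 36.2 ± 9.13 to 70.6 ± 2.57 TPM (0.97, adjusted p 0.00924), and that call was lost without WT replicate 2.

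Survival genes gave 3 calls among 23 tested (13.0%, against 1.59% of all genes). Bcl2, the anti-apoptotic founder of its family, was at 61.8, 60.8 and 52.7 TPM in WT and at 116, 117 and 97.8 TPM in KO libraries (log2 change 0.90, limma adjusted p 0.000362). Bmf, a pro-apoptotic member of the same family, was at 11.6, 45.7 and 18.6 TPM in WT and at 0.52, 1.15 and 0.35 TPM in KO libraries (-3.78, adjusted p 0.000153). The WT spread was wide but every WT library was far above every KO library; Bmf lies on the chromosome of B2m, as described further on. Tnfrsf9, the costimulatory receptor 4-1BB, was at 70.2, 64.1 and 77.3 TPM in WT and at 34.3, 33.0 and 14.5 TPM in KO libraries (-1.43, adjusted p 0.00571).

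Cytokine receptors and their signalling gave 4 calls among 29 tested (13.8%, against 1.59% of all genes). Ifngr1, the ligand-binding chain of the interferon-gamma receptor, was at 563, 519 and 544 TPM in WT and at 807, 891 and 877 TPM in KO libraries (log2 change 0.66 ± 0.08 SE, limma adjusted p 0.000121), and was called in all 19 alternative settings. The 2 chains of the IL-18 receptor were called in opposite directions: Il18r1 rose from 497 ± 16.6 to 649 ± 53.1 TPM (0.38, adjusted p 0.00769) and Il18rap fell from 1211 ± 115 to 983 ± 39.5 TPM (-0.30, adjusted p 0.0424). Socs1, a feedback inhibitor of cytokine signals, rose from 5.93 to 16.8 TPM (1.35, adjusted p 0.0408). The call of Socs1 was lost without any 1 TP library, that of Il18rap without any 1 but WT replicate 3, and that of Il18r1 without KO replicate 1. The IL-2 and IL-15 receptor chains Il2rb and Il2rg, at 1810.2 and 967 TPM in WT, were not called.

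Of 10 tested glucocorticoid-responsive and metallothionein genes, 4 were called, all higher in KO TP cells, and the list's median log2 change was 0.44. Tsc22d3, which encodes the glucocorticoid-induced leucine zipper GILZ, was at 123, 133 and 125 TPM in WT and at 375, 373 and 343 TPM in KO libraries, with no overlap (1.51 ± 0.13 SE, limma adjusted p 1.64e-06). Txnip, an inhibitor of glucose uptake, was at 619, 569 and 637 TPM in WT and at 1445, 1391 and 1045 TPM in KO libraries (1.07, adjusted p 2.18e-05). Ddit4, an inhibitor of the growth regulator mTORC1, rose from 53.8 ± 9.70 to 137 ± 39.8 TPM (1.31, adjusted p 0.00206), and Per1, a clock gene, from 24.6 ± 0.717 to 43.9 ± 4.67 TPM (0.81, adjusted p 0.0108), a call lost without KO replicate 1. Fkbp5 and Sgk1, classic targets of the same hormone receptor, were not called, at 76.5 and 84.4 TPM and at 84.4 and 83.6 TPM.

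The promoters of the 4 called genes, taken as 250 bases before to 50 bases after the start site in RefSeq GRCm38.p6, were searched on both strands for the palindromic core of the glucocorticoid response element, a pair of inverted half-sites around a short spacer. They had 7 such windows, and only that of Txnip held a match, where 0.475% of all 32851 promoter windows hold one. It is shown with the match in capitals (chr3:96557707-96558006, plus strand):
Txnip: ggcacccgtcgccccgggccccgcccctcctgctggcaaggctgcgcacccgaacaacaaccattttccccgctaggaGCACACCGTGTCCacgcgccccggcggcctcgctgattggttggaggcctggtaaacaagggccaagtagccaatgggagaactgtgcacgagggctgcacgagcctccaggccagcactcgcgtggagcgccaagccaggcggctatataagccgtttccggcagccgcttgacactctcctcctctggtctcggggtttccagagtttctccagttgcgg
A match is a description of the letters and not a bound site, and no match says only that the letters are not in these windows.

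Of 27 tested immediate early and heat shock genes, 2 were called, both higher (7.41%, against 1.59% of all genes). The list's median log2 change was 0.45, and 22 of the 27 had a change above 0, against 6605 of all 12018 tested genes. Hspa8, the constitutive HSP70 chaperone, was at 827, 851 and 1138 TPM in WT and at 1826, 1563 and 2545 TPM in KO libraries (log2 change 1.06, limma adjusted p 0.0477), and its co-chaperone Dnajb1 rose from 44.8 ± 8.78 to 94.3 ± 18.0 TPM (1.06, adjusted p 0.0172). Dnaja1, Hsph1 and Hsp90aa1 had log2 changes of 1.18, 1.53 and 0.98 without being called (adjusted p 0.0526, 0.053 and 0.0971). The fit behind these p-values takes same-numbered TP, SP and TN libraries as independent, and KO Hspa8 moved together by number, as described further on. The call of Hspa8 was lost without any 1 TP library, under pseudocount 0.1, without a filter, without the trend, with robust moderation and under median-of-ratios scaling, and that of Dnajb1 without WT replicate 1 or 2 or KO replicate 1 or 3. Fkbp4, Stip1 and Ptges3, which encode co-chaperones of HSP90 and were picked out after their values were seen, were called higher (70.0 to 123, 73.2 to 165 and 51.4 to 93.7 TPM). Of the promoters of these 5 genes, 4 had an entry, and only that of Fkbp4 held GAANNTTC, a palindromic pair of heat shock element units that 7.86% of all windows hold. It is shown with the match in capitals (chr6:128438607-128438906, minus strand):
Fkbp4: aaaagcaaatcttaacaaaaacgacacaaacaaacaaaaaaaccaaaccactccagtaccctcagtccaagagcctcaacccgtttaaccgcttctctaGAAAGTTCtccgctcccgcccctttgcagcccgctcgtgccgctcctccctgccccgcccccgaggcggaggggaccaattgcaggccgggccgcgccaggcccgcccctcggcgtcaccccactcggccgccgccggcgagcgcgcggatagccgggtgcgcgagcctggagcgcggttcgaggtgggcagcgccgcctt

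Cell cycle genes, 30 tested, gave 1 call (3.33%, against 1.59% of all genes). It was Mcm6, a subunit of the replicative helicase, which rose from 78.4 ± 5.95 to 122 ± 13.9 TPM (log2 change 0.63, limma adjusted p 0.00255). The list's median was -0.41, with 12 of the 30 above 0, against 6605 of all 12018 tested genes. The proliferation marker Mki67 was at 12.2 and 4.78 TPM without a call (limma adjusted p 0.0948). Nutrient uptake and glycolysis genes, 24 tested, also gave 1 call (4.17%), and 6 of the 24 had a change above 0. It was Slc38a2, an amino acid transporter (130.2 to 171 TPM, limma adjusted p 0.0424). That call was lost under median-of-ratios and quantile scaling and without any library but KO replicate 3.

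**Figure D4:**
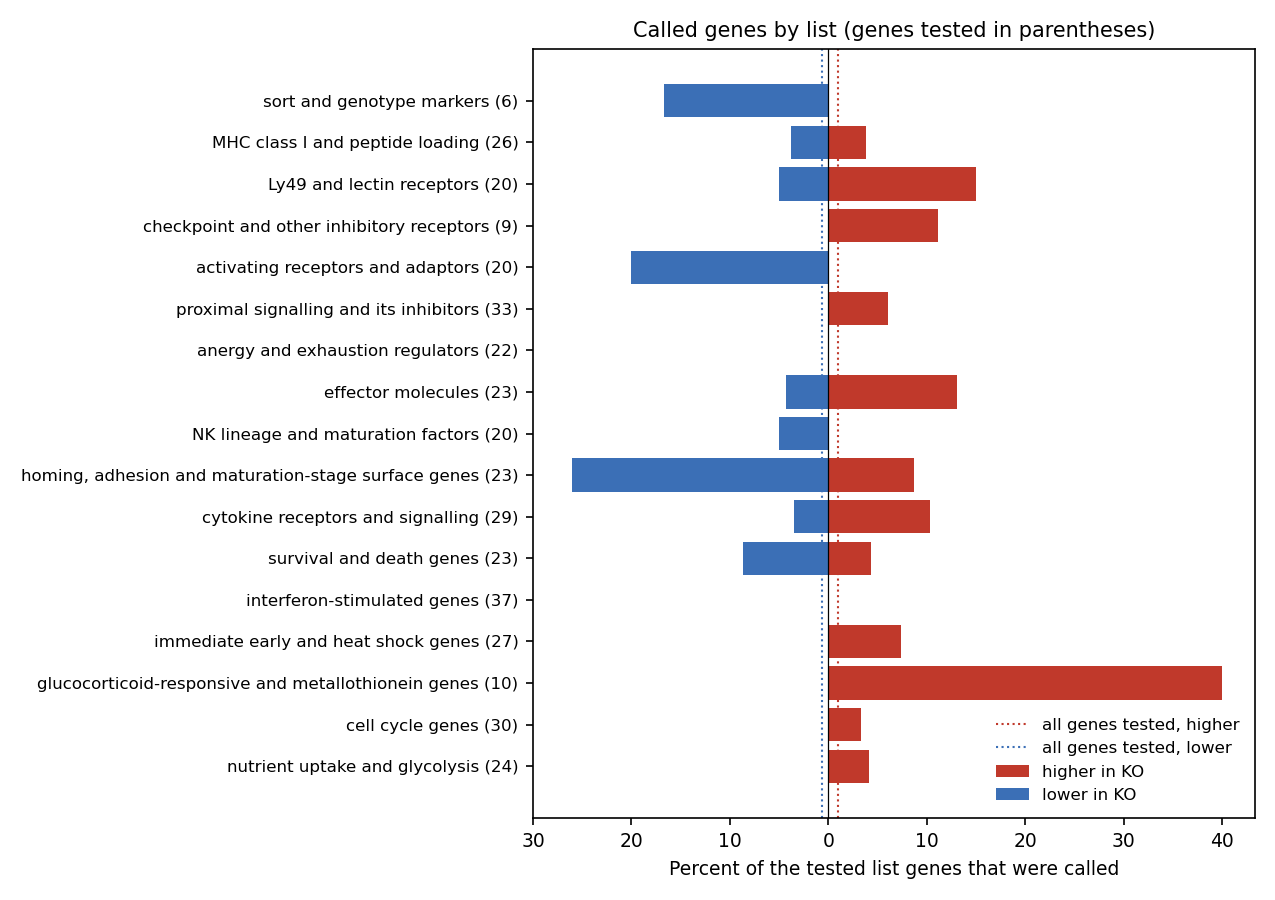
Percent of the tested genes of each list that were called higher (red, to the right) or lower (blue, to the left) in KO TP cells, with the number tested in parentheses. Dotted lines mark the share of all 12018 tested genes, 0.982% higher and 0.607% lower; the anergy and interferon lists have no called gene, and the homing list has 6 lower and 2 higher.

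Several of the large falls outside these lists were in neighbouring genes on chromosome 1. Khdc1a, Khdc1b and Khdc1c are a family of neighbouring genes. Khdc1a was at 58.1, 76.2 and 53.0 TPM in WT and at 4.47, 4.15 and 5.54 TPM in KO libraries (log2 change -3.46 ± 0.18 SE, limma adjusted p 5.1e-09). Khdc1c fell by 2.89 and Khdc1b by 2.77, and Gsta3, a glutathione transferase gene, by 2.48. In the gene order of the GENCODE annotation of GRCm38 these 4 lie within 10 tested genes of each other and of Kcnq5 and Gm4956, which were also called lower and fall outside the naming rule. Gm4956, a predicted gene, was at 379, 456 and 330.3 TPM in WT and at 0, 5.95 and 0.93 TPM in KO libraries. All 6 were lower in KO TP cells, and the named 4 fell in SP cells (-2.51 to -3.32) and TN cells (-2.74 to -3.89) too.

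Other large falls were in Arhgap31, a GTPase-activating protein for Rac and Cdc42 (14.5 ± 1.81 to 0.28 ± 0.14 TPM), and Eps8l1, an actin regulator (66.8 ± 22.1 to 4.79 ± 2.09 TPM), with log2 changes of -3.59 and -3.56. The other large rises were mostly in genes at low level. Raet1a, which encodes a RAE-1 ligand of the activating receptor NKG2D, was listed at 0 in all 3 WT libraries and was at 11.1, 10.8 and 4.51 TPM in KO libraries (limma adjusted p 0.000331). It reached the level needed for a test only through KO libraries, so the adjusted p is no support. Slc15a2, a peptide transporter, was better expressed, at 60.5, 30.7 and 68.0 TPM in WT and at 182, 237 and 189 TPM in KO libraries (log2 change 1.98, adjusted p 3.86e-05). Capn11, a calpain, Anxa8, an annexin, Ltk, a receptor tyrosine kinase, Cacnb1, a calcium channel subunit, Zfp560 and Tex30 rose by 1.89 to 2.80 from WT means of at most 6.13 TPM. Of these 6 only the call of Anxa8 held with each TP library left out. Those of Capn11, Cacnb1, Ltk and Tex30 were lost without any of at least 4 libraries, and that of Zfp560 without WT replicate 2 or KO replicate 1 or 3. Capn11 and Cacnb1 too reached the level needed for a test only through KO libraries, so their calls restate that they were high there.

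A knockout allele carries the chromosome around it, so called genes were counted near B2m on chromosome 2. Among the 25 tested genes on each side of it, 1 of 50 was called (2.0%), and among the 100 on each side, 5 of 200 (2.5%), against 1.59% of all genes tested. The near one was Slc28a2, a nucleoside transporter, at 184, 193 and 162 TPM in WT and at 38.6, 30.3 and 39.3 TPM in KO libraries (log2 change -2.29 ± 0.12 SE, limma adjusted p 3.76e-09), and it fell in SP and TN cells as well (-2.57 and -2.49). The wider window added Bmf, Capn3, Ltk and Oip5os1. Capn3, a calpain, was at 6.65, 9.00 and 8.99 TPM in WT and at 0.68, 0 and 0.29 TPM in KO libraries. Its log2 change was -2.82, against -0.47 for the SP contrast and -1.30 for the TN contrast, both uncalled (limma adjusted p 0.716 and 0.226). Bmf, at -3.78, had -1.57 for SP, uncalled (adjusted p 0.134), and -3.59 for TN. Oip5os1 fell alike (-0.58, then -0.62 for SP and -0.68 for TN). For Ltk every KO library lay above every WT library within SP and within TN too. No difference between subsets was called for these genes, as described further on. Whether the changes near B2m come from the flanking chromosome or from the loss of B2m cannot be told apart.

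To see how far the TP result is shared, the same contrast was read in the other subsets. These have libraries of their own, but the labels do not say whether libraries with the same replicate number came from the same mouse. Some genes, picked after their values were seen, moved together by number. KO Hspa8 was at 1826, 1563 and 2545 TPM (TP), 1996, 1586 and 2638 TPM (SP) and 2105, 1582 and 2660 TPM (TN). KO Stip1 had the same order of replicates. How many genes do so was not counted. Over all genes the correlation with mouse as a random block was 0.015. The main fit has no such block and takes the 18 libraries as independent. Calls shared between subsets may therefore rest on the same 3 mice of each genotype. Of the 191 genes, 93 were also called with the same sign in SP cells and 54 in TN cells, and 0 were called with the opposite sign in either. The difference between contrasts was tested as an interaction. Against SP cells, 2 of 12018 genes were called (0.0166%), Ngp and S100a9, with 530 (4.41%) at an unadjusted p under 0.05. Against TN cells 3 were called (0.025%), the same 2 and Igha, with 754 (6.27%) at an unadjusted p under 0.05. All 3 are markers of other cell types that reached the level needed for a test only through the KO TP libraries, so these calls restate that they were high there and are no measure of how far the TP result is shared. No other gene was called in either test, which does not show that the subsets responded alike.

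Several NK genes came close to that threshold against TN cells. Klra7 had log2 changes of 0.99 in TP and 0.49 in SP cells, with 0.27 in TN cells, and the difference of TP from TN was 0.72 ± 0.13 SE (limma adjusted p 0.0808). Ptpn6 rose by 1.23 in TP and 0.03 in TN cells, where the WT libraries already stood at 307 ± 46.3 TPM (difference 1.20 ± 0.23, adjusted p 0.0808). Ccl5 had changes of -0.44 in TP and 0.13 in TN cells (adjusted p 0.0808), S1pr1 of 1.61 and 0.68 (adjusted p 0.0979), and Klrg1 of -1.61 and -0.63 (adjusted p 0.119). Under a few alternative settings some NK genes were called against TN cells. Klra7 was called under quantile normalization (limma adjusted p 0.018), with the filter on TP libraries (0.0492) and without WT TN replicate 2 (0.0359). Serpinb9b was called without that same library (0.0252) and Sla without KO TP replicate 3 (0.0241). Itpkb was called without a filter (0.0116) or without KO TN replicate 2 (0.0293). Ptpn6 was called without WT SP replicate 2 (0.0137), a library on neither side of this comparison. Under all other settings and in the main fit these genes were not called. The WT TN means were 69.9 TPM for Klrg1, 808 TPM for Klra7 and 87.9 TPM for S1pr1, against WT TP means of 437, 290.0 and 42.4 TPM. Cxcr4 (3.24, 3.61 and 2.84), Tsc22d3 (1.51, 1.37 and 1.72) and Txnip (1.07, 1.05 and 1.24) were called in all 3 subsets, with the log2 changes in TP, SP and TN cells given in that order.

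**Figure D5:**
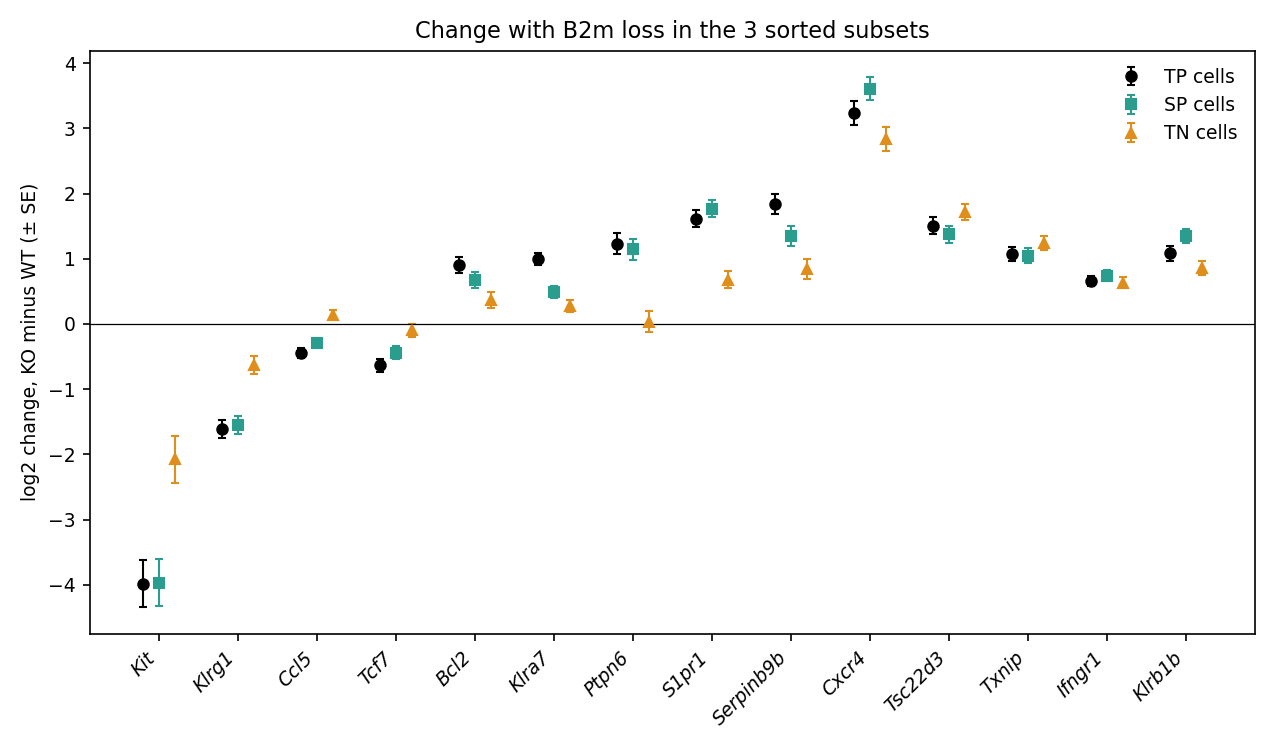
Log2 change, KO minus WT, with its limma SE, for 14 genes called in TP cells (black circles), beside the same contrast in SP (green squares) and TN cells (orange triangles). Ptpn6 is at 1.23 and 1.15 in TP and SP cells and at 0.03 in TN cells, while Cxcr4 lies between 2.84 and 3.61 in all 3.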

How the data were processed

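RNA of sorted splenic NK cells was extracted with a miRNeasy Micro kit and made into KAPA mRNA HyperPrep libraries, per the labels' protocols, and all 18 sorted-subset libraries carry a single batch date. The authors deposited TPM per gene for 32940 genes; STAR, RSEM and GRCm39 are named, without versions, in the submitters' processing notes. TPM keep no sequencing depth, so no counting error can be given. The TP libraries summed to 938012 to 948786 TPM, with 12425 to 14320 genes above 0. Replicates correlated at Pearson r of 0.924 to 0.953 across genes. Pairs of a WT TP and a KO TP library correlated at 0.906 to 0.946, a range that overlaps that of the replicates.

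Genes were tested where TPM averaged 1 or more across the 18 libraries. Limma 3.58.1 in R 4.3.3 was fitted to log2(TPM + 1), which understates changes of low genes, with 6 group means, moderated variances with an intensity trend, two-sided tests and Benjamini-Hochberg adjustment over all 12018 genes within each comparison. The script was tested on simulated data. Other pseudocounts, filters, scalings, variance settings and sets of libraries were tried as alternatives. The other tables of the series were not used here. Samples were grouped by title. Replicate numbers name different mice in the 2 genotypes, so the main fit used no block across genotypes. Replicate number as a block across genotypes and a block for same-numbered libraries of 1 genotype were tried only as alternatives. Named genes were the 12 largest rises and falls among called genes without overlap (predicted genes, small RNAs, pseudogenes and markers of other cells left out), called genes of 17 lists, called genes near B2m and the sort markers. Members and lists were chosen with earlier results of these data known. Gene order came from a GRCm38 annotation, for neighbours only; 11942 tested genes had a place. Some called genes are not reported here.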

Additional observations from a re-analysis of the deposited data

Results flagged for a closer look

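For 3 genes limma's interaction test called a difference between the change with B2m loss in TP cells and that in another subset. All 3 reached the level needed for a test only through the KO TP libraries, so the values describe those libraries and the adjusted p is no support. Differences are of changes in log2(TPM + 1) and depend on the pseudocount, since the WT TP libraries are at or near 0. Ngp changed by 4.46 more in TP than in SP cells (adjusted p 0.0202) and by 4.49 more than in TN cells (adjusted p 0.00925). S100a9 changed by 5.25 more in TP than in SP cells (adjusted p 0.0233) and by 5.38 more than in TN cells (adjusted p 0.0114). Igha changed by 8.05 more in TP than in TN cells (adjusted p 0.00925). Ngp and S100a9 are neutrophil genes, at most 0.16 TPM on average in any SP or TN group. Igha is a plasma cell gene, at most 3.67 TPM on average in any SP or TN group, the highest being WT TN. The part of other cells in these differences was not tested.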

How the results depend on the processing

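TP calls fell from 191 to 43 with the 6 TP libraries alone (24 higher, 19 lower), a fit with fewer samples, and to 109 to 144 without 1 TP library (58 to 87 higher, 47 to 59 lower). Of 68 called genes named here, 25 were called under all 19 alternatives that tested them and 0 reversed; 43 lost the call with the TP libraries alone, 16 without the trend, 12 without a filter and 11 to 20 without 1 library. With replicate number as a block across genotypes there were 212 calls. There were 195 with mouse as a random block, taking same-numbered libraries of a genotype as 1 mouse. Over all genes, same-numbered libraries of the 2 genotypes deviated with correlations of 0.009, -0.025 and 0.006, so the numbers show no pairing between genotypes across genes as a whole. A summary over all genes cannot exclude it in single genes, and Hspa8 was highest in replicate 3 of both genotypes in TP cells. The check between genotypes does not bear on same-numbered TP, SP and TN libraries of 1 genotype. Interaction calls against SP cells (2) were 0 with pseudocount 0.1 or 0.5, with a mean of at least 5 TPM and with the replicate number block (554, 541, 423 and 541 at an unadjusted limma p under 0.05), 5 without a filter, 6 with the compared libraries alone, 4 without the trend and 0 to 5 without 1 library: 0 without WT TP replicate 2 or 3, WT SP replicate 2, KO TP replicate 3 or KO SP replicate 1 (445 to 557 unadjusted), 1 without WT TP replicate 1, WT SP replicate 1 or 3 or KO TP replicate 2, and 5 without KO SP replicate 3. Against TN cells (3) they were 0 with pseudocount 0.1 (754 unadjusted), 10 without a filter, 1 with a mean of at least 5 TPM, 7 with the filter on TP libraries, 1 with the compared libraries alone, 7 without the trend and 2 to 5 without 1 library, with 5 without WT TN replicate 2, KO TP replicate 1 or 3 or KO TN replicate 2; the causes were not tested. Genes whose groups did not overlap numbered 3236 to 3422 without 1 library, where fewer values are compared; this alternative was added after seeing the data.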

Other observations

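Some called genes outside the lists, picked out after their values were seen, are given here as values. Zfp36l2, which encodes a protein that destabilises AU-rich mRNA, rose from 357 ± 29.3 TPM in WT TP to 968 ± 61.5 TPM in KO TP cells (log2 change 1.44, limma adjusted p 1.93e-08), and by 1.32 in SP and 1.16 in TN cells. Itpkb, a kinase that removes the second messenger IP3, rose from 70.8 ± 3.62 to 121 ± 4.76 TPM (0.77, adjusted p 0.000107), with a change of 0.05 in TN cells. Vps37b, a subunit of the ESCRT-I sorting complex, rose from 93.8 ± 3.82 to 233 ± 17.2 TPM (1.31, adjusted p 0.000159). Sla, which encodes the adaptor SLAP that damps antigen receptor signals, rose from 192 ± 5.55 to 347 ± 61.8 TPM (0.84, adjusted p 0.000238). Pim2, a survival kinase, fell from 115 ± 14.1 to 46.5 ± 9.11 TPM (-1.30, adjusted p 5.78e-05). Epsti1, an interferon-inducible gene that was not on the interferon list, fell from 288 ± 19.8 to 143 ± 4.93 TPM (-1.01, adjusted p 2.25e-06). With the 6 TP libraries alone Sla and Pim2 were not called.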
